A study of Mus musculus with 6 samples.

Results

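The comparison described here asked what a butanediol diet changed in tumours that also received immune checkpoint blockade. It covered the 4044 of 5749 annotated cells that came from 6 tumours in 1 droplet library. Membership followed the treatment that the deposited table gives for each cell. The ICB group (standard chow and blockade) held 2314 cells, with 832, 569 and 913 in its 3 tumours. The BD+ICB group (butanediol chow and the same blockade) held 1730 cells, with 571, 651 and 508.

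All 6 tumours grew from 1 mouse prostate cancer line, PPS-ICBR, which the labels call resistant to blockade, and the strain was C57Bl6. Mice of both groups received checkpoint blockade aimed at PD-1 and CTLA-4 (0.2 mg, per the labels). The BD+ICB mice ate chow in which 80 mL of 1,3-butanediol and 120 mL of water were mixed with 198 g of standard chow and 2 g of saccharine, while the ICB mice ate standard chow. The labels give no age, and they do not state whether the tumours of a group came from separate mice, so that p-values measure the spread between these tumours. A single line limits the groups as a model, and leukocytes were enriched by Percoll centrifugation, which makes every share one of recovered cells. The listed tumour sizes, in a unit that was not stated, were 1116, 995 and 289 in ICB and 48, 23 and 90 in BD+ICB. The sizes did not overlap, so diet and tumour size cannot be told apart in any result below.

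The liver converts 1,3-butanediol to the ketone body β-hydroxybutyrate, which serves as fuel, binds the receptor Hcar2 on myeloid cells and inhibits histone deacetylases. PD-1 and CTLA-4 are inhibitory receptors of T cells. T cells that are freed from them release interferon-gamma, a cytokine whose response includes the transcription factor Irf1. In tumour and myeloid cells it raises the MHC class I machinery, by which peptides are cut in the immunoproteasome, moved by the Tap transporter and shown on H2-K1 and H2-D1 with B2m. Neutrophils and macrophages in tumours can hold T cells back, and they also carry a programme of hypoxia and glycolysis genes in tissue that is short of oxygen.

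Promoters of 4 genes that were called higher below are shown because each holds the letters of an interferon-stimulated response element, searched as GAAANNGAAA on both strands in the 250 bases upstream of the start site. Sequences are from RefSeq on GRCm38.p6, written along the gene's strand, with the first match in capitals.
B2m, chr2:122147508-122147597, plus strand: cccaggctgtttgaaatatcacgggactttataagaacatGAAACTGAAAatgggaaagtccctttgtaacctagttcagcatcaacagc
Irgm1, chr11:48871421-48871490, minus strand: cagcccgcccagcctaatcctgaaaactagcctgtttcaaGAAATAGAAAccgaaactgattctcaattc
Gbp5, chr3:142496729-142496818, plus strand: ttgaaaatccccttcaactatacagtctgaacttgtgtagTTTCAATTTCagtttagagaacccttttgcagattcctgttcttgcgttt
Isg15, chr4:156200847-156200936, minus strand: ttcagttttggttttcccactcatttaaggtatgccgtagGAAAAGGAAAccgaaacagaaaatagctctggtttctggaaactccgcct
In Gbp5 the match lies on the opposite strand. B2m is the light chain of MHC class I, Irgm1 and Gbp5 are interferon-inducible GTPases, and Isg15 is a ubiquitin-like protein. The letters stood in 3.04% of all 27025 promoters and in 2.76% of the 7652 genes tested in proliferating cancer cells that had one. Of the 36 genes called higher in those cells with a promoter in the table, 7 held them (B2m, Fbn1, Gbp5, H2-T22, Irgm1, Rsbn1 and Tm4sf1), against 0 of 34 called lower. In Vcan+ monocytes 3 of 12 held them (B2m, Ifi205 and Isg15). The gamma-activated site, searched as TTCNNNGAA on both strands, stood in 7.18% of all promoters and 5.82% of those tested in cancer cells. It was found in 3 of the 36 raised genes (Gbp5, Irf1 and Serpina3f), in 2 of the 34 lowered ones (Il1r2 and Mme) and in 0 of 12 in Vcan+ monocytes. A match describes letters only, and the 4 promoters printed were chosen for holding one.

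Summed UMI counts per tumour ranged from 7548533 to 13007506 in ICB and from 6082380 to 8773691 in BD+ICB. The median UMIs per cell were 8403.5, 5848 and 4706 in ICB and 10817, 9761 and 8366.5 in BD+ICB. Hashtags 3 to 5 marked the ICB and 6 to 8 the BD+ICB tumours, and median hashtag counts per cell were higher in ICB (2083 to 2778.5) than in BD+ICB (921 to 1169). Hashtag set and diet cannot be told apart. Between the libraries of the series 2 annotated barcodes were shared. Neutrophils and T cells carried their defining markers, with 12 of 12 neutrophil and 13 of 13 T cell markers over 20 CPM in both groups. The class named proliferating cancer cells went partly against its name: Epcam was at 0 in 4 of the 5 tumours fitted and Krt5 at 0 in all 5, whereas Krt8 stood at 853 to 1092 CPM in ICB and 418 to 570 CPM in BD+ICB. Of 10 fibroblast markers, 9 were over 20 CPM in ICB and 8 in BD+ICB in that class. The class named Nos2+ dendritic cells also went against its name, with 12 of 12 macrophage markers over 20 CPM in both groups (summed to 10074 to 12547 CPM in ICB and 5049 to 7851 CPM in BD+ICB), against 3 of 8 markers of type 1 and 2 of 9 of type 2 dendritic cells. Its monocyte markers were over 20 CPM for 11 of 11 in ICB (summed to 4184 to 5538 CPM) and 10 of 11 in BD+ICB (5692 to 6405 CPM). The macrophage sums were lower and the monocyte sums higher in BD+ICB, both without overlap. The class makes up most of the merged dendritic compartment in BD+ICB. The deposited names are used below only as names.

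M1 macrophages and Nos2+ dendritic cells took larger shares of the BD+ICB than of the ICB tumours, but no share passed its test. M1 macrophages, a class the authors named after classically activated macrophages, made up 5.89%, 5.98% and 7.23% of cells in ICB and 18.6%, 15.98% and 16.7% in BD+ICB. Nos2+ dendritic cells made up 4.93%, 1.05% and 1.64% in ICB and 15.2%, 14.4% and 7.48% in BD+ICB. Neither class overlapped between the groups. Ifit+ monocytes, which carry interferon-induced genes, were also without overlap, at 1.08%, 0.703% and 0.219% in ICB and 1.40%, 1.84% and 1.38% in BD+ICB. The mesenchymal class went the other way, at 3.73%, 4.22% and 1.64% in ICB and 0.350%, 1.23% and 1.18% in BD+ICB.

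**Figure D1:**
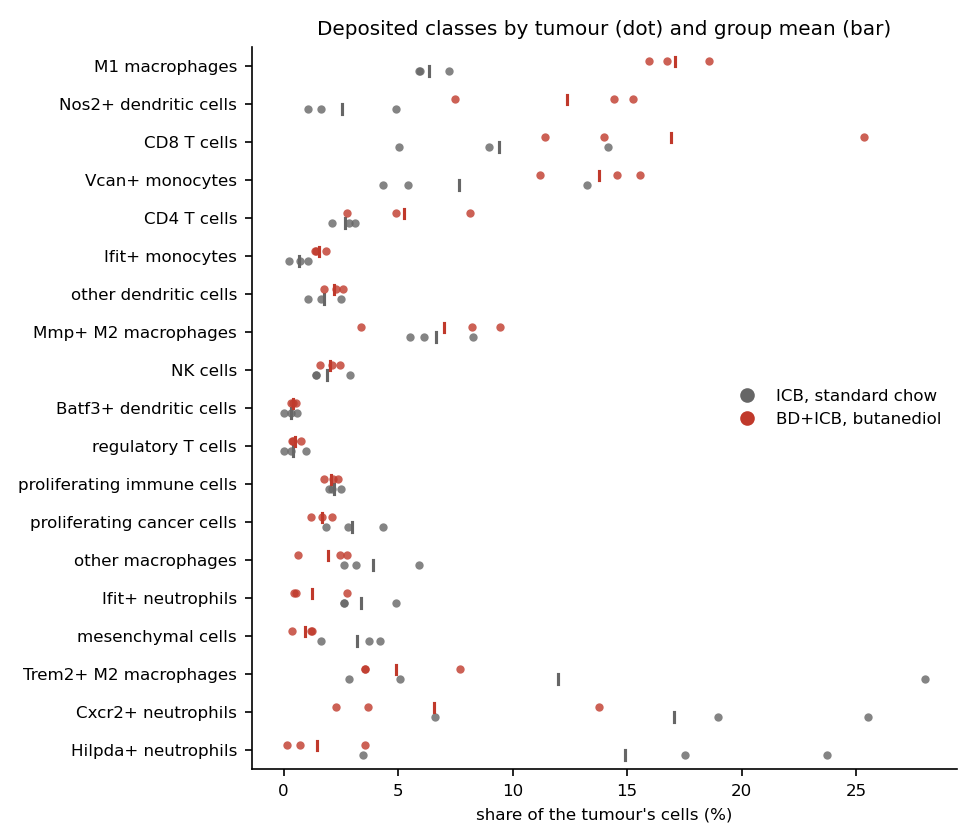
Share of each deposited class (rows) among the cells of a tumour in percent (x axis), for 3 ICB and 3 BD+ICB tumours, with a bar at each group's mean. M1 macrophages sit between 5.89% and 7.23% in ICB and between 15.98% and 18.6% in BD+ICB, while neutrophil classes spread widely within ICB.

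These were 4 of 19 classes, or 21.1%, with groups that did not overlap, and 2 of 9 merged compartments (22.2%). With 3 tumours against 3 the two-sided exact permutation test cannot go below p = 0.1, and the smallest adjusted p was 0.422 over the classes and 0.3 over the compartments. edgeR on the cell numbers, an alternative without that limit, also called 0, with log2 folds of 1.42 for M1 macrophages and 2.26 for Nos2+ dendritic cells (edgeR adjusted p = 0.0937 for both), 1.69 for merged dendritic cells and -1.76 for mesenchymal cells (edgeR adjusted p = 0.0604 for both, over the compartments). Before adjustment, 4 of 19 classes and 3 of 9 compartments had p under 0.05 there. Merged dendritic cells stood at 8.05%, 2.11% and 3.61% in ICB and 18.0%, 17.4% and 9.65% in BD+ICB. Merged neutrophils stood at 12.7%, 47.6% and 45.7% in ICB and 3.50%, 4.30% and 20.1% in BD+ICB, so that 1 tumour of each group crossed into the other's range. Merged T cells (18.3%, 11.1% and 8.21% against 19.3%, 34.3% and 14.6%) and CD8 T cells (14.2%, 8.96% and 5.04% against 14.0%, 25.3% and 11.4%) overlapped. Trem2+ M2 macrophages reached 28.0% in ICB replicate 1 and 2.85% to 7.71% in the other 5 tumours.

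The mixture inside a compartment differed too. M1 macrophages made up 14.0%, 26.6% and 32.7% of macrophages in ICB and 50.2%, 68.0% and 51.5% in BD+ICB. Nos2+ cells made up 61.2%, 50.0% and 45.5% of dendritic cells in ICB and 84.5%, 83.2% and 77.6% in BD+ICB. Hilpda+ neutrophils, named for a lipid droplet protein induced by hypoxia, made up 27.4%, 49.8% and 38.4% of neutrophils in ICB and 20%, 3.57% and 17.6% in BD+ICB (4, 1 and 18 cells). None of these ranges overlapped, and the part of the mixture in the results of the merged compartments was not tested for macrophages and dendritic cells.

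Gene levels are summed counts of a class in a tumour, divided by the TMM-scaled library size (counts per 1e6, CPM). Levels and sums of cell type markers, above and below, are CPM without TMM scaling. A gene was called when its edgeR quasi-likelihood test of BD+ICB against ICB gave a Benjamini-Hochberg adjusted p under 0.05 over all genes of the class. Across 13 testable classes there were 204 calls on 196 genes, 79 higher and 125 lower in BD+ICB, in 10 classes. Proliferating cancer cells and CD8 T cells gave most of them. Only 7 genes were called in 2 or more classes, and 5 of them kept their direction: B2m higher, and Cx3cr1, Clec4d, Ets2 and Ier3 lower. Clec4d, Ets2 and Ier3 were called only in CD4, CD8 or NK cells. None of them stayed called in those classes without lymphocytes holding 10 or more myeloid-marker UMIs, although Ets2 did in merged T cells. No calls were made in Nos2+ dendritic cells (percent called 0, 296 of 5679 genes at an unadjusted p under 0.05), Trem2+ M2 macrophages (0, 308 of 5049) or proliferating immune cells (0, 515 of 5481). Batf3+ dendritic cells, Hilpda+ and Ifit+ neutrophils, Ifit+ monocytes, mesenchymal cells and regulatory T cells had too few tumours with 10 cells to be tested. Over the 13 classes leaving out ICB replicate 2 gave 112 calls, leaving out BD+ICB replicate 2 gave 130, and leaving out BD+ICB replicate 3 gave 355.

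Genes of MHC class I presentation and of the interferon-gamma response stood higher with butanediol in cancer cells, monocytes and neutrophils, and in most tested classes outside the lymphocytes, by the median of each list. Over the 13 classes, the median log2 fold of the MHC class I list lay above that of all genes in 10, from -0.12 to 0.97, with 9 calls higher and 0 lower. For the interferon-gamma list it lay above in 9, from -0.71 to 1.31, with 6 calls higher and 0 lower. The type I interferon list lay above in 10 classes, from -0.34 to 0.49, with 2 calls higher. CD4, CD8 and NK cells were among the classes whose MHC class I and interferon-gamma medians did not lie above that of all genes.

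**Figure D2:**
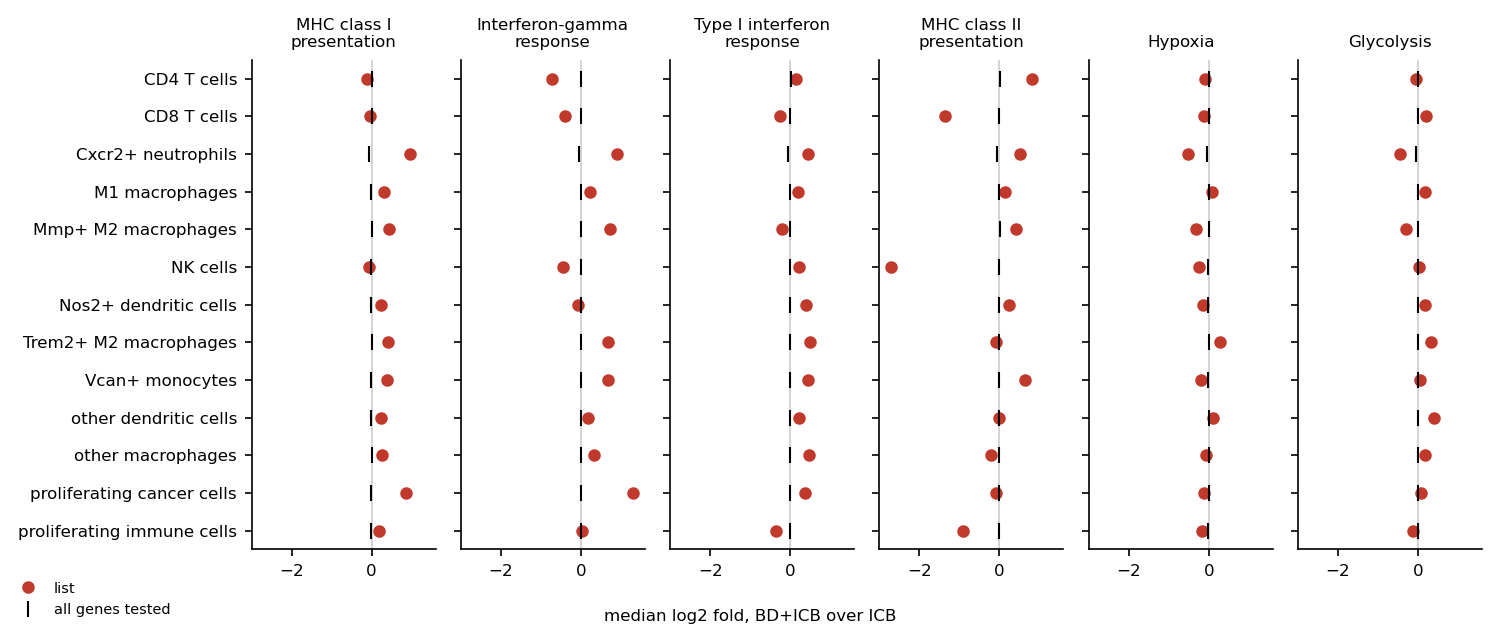
Median log2 fold of BD+ICB over ICB (x axis) of 6 gene lists (panels) in 13 deposited classes (rows). Red dots are the list and black ticks all genes tested in that class. The highest MHC class I medians are in Cxcr2+ neutrophils (0.97) and proliferating cancer cells (0.86).

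In proliferating cancer cells 45 genes rose (0.468% of 9613 tested) and 57 fell (0.593%). The raised genes held 7 of the 18 tested MHC class I genes (H2-K1, H2-D1, B2m, Tap1, Tap2, Psme1 and Psme2) and 4 of the 20 tested interferon-gamma genes (Gbp5, Gbp6, Irf1 and Irgm1). All 18 MHC class I genes had a positive log2 fold, with a median of 0.86 against -0.004 over all genes, and 15 did not overlap between the groups (15.7% of all genes were higher without overlap). Of the interferon-gamma genes 19 were positive, with a median of 1.31, and 16 did not overlap in that direction. The type I interferon list had 0 of 21 calls and a median of 0.37. This fit held 36, 16 and 17 cells in the ICB tumours and 12 and 11 in BD+ICB replicates 1 and 2; BD+ICB replicate 3 had 6 cells and was left out.

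H2-K1, the heavy chain of a classical MHC class I molecule, stood at 778, 777 and 858 CPM in ICB and 1483 and 1365 CPM in BD+ICB tumours (log2 fold 0.82 ± 0.09 (SE), edgeR adjusted p = 0.000802). H2-D1, the other heavy chain, stood at 1168, 1068 and 1172 CPM in ICB and 1765 and 1666 CPM in BD+ICB tumours (log2 fold 0.59 ± 0.10 (SE), edgeR adjusted p = 0.0115). B2m stood at 1745, 1729.5 and 2116 CPM in ICB and 2659 and 2675 CPM in BD+ICB tumours (log2 fold 0.52 ± 0.10 (SE), edgeR adjusted p = 0.0217). The groups did not overlap for these 3 genes. Tap1, a subunit of the peptide transporter, was measured at 61.7, 67.6 and 77.6 CPM in ICB and 183 and 146 CPM in BD+ICB tumours (log2 fold 1.27 ± 0.17 (SE), edgeR adjusted p = 0.00378). Tap2, its partner, was measured at 39.7, 53.0 and 60.3 CPM in ICB and 107 and 94.4 CPM in BD+ICB tumours (log2 fold 1.00 ± 0.19 (SE), edgeR adjusted p = 0.0184). Both subunits were higher in each BD+ICB tumour than in any ICB tumour. The proteasome activators Psme1 and Psme2 had log2 folds of 0.91 ± 0.16 and 0.80 ± 0.15 (SE; edgeR adjusted p = 0.018 and 0.024).

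Among interferon-gamma targets, the GTPase Gbp6 stood at 12.4, 12.1 and 20.4 CPM in ICB and 58.6 and 57.2 CPM in BD+ICB tumours (log2 fold 1.97 ± 0.24 (SE), edgeR adjusted p = 0.00136). Irgm1 stood at 41.8, 29.8 and 44.7 CPM in ICB and 92.3 and 88.2 CPM in BD+ICB tumours (log2 fold 1.21 ± 0.17 (SE), edgeR adjusted p = 0.00416). Irf1, a transcription factor of the pathway, stood at 199, 195 and 204 CPM in ICB and 329.6 and 280.5 CPM in BD+ICB tumours (log2 fold 0.61 ± 0.12 (SE), edgeR adjusted p = 0.0267). None of these overlapped, and all lay higher in BD+ICB. Serpina3f, a serpin outside the lists, was among the largest changes, at 3.97, 4.04 and 8.67 CPM in ICB and 40.5 and 28.3 CPM in BD+ICB tumours (log2 fold 2.67 ± 0.33 (SE), edgeR adjusted p = 0.00136). The T cell attractant Cxcl9 stood at 176, 252 and 238 CPM in ICB and 1433 and 749 CPM in BD+ICB tumours without passing the threshold (edgeR adjusted p = 0.0546), and the PD-1 ligand Cd274 at 5.6, 16.7 and 13.4 CPM in ICB and 23.9 and 28.9 CPM in BD+ICB tumours (edgeR adjusted p = 0.231). Neither range overlapped.

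The genes that fell included linker and core histones, the Nr4a nuclear receptors and the chemokine Cxcl12. Hist1h1b, a linker histone, stood at 294, 397 and 280.1 CPM in ICB and 73.7 and 75.8 CPM in BD+ICB tumours (log2 fold -2.11 ± 0.18 (SE), edgeR adjusted p = 0.000101). Hist1h1e and Hist1h1a, 2 more linker histones, had log2 folds of -1.46 ± 0.15 and -2.33 ± 0.26 (SE; edgeR adjusted p = 0.000239 and 0.000708), and the core histone Hist1h2ab one of -1.79 ± 0.23 (edgeR adjusted p = 0.00166). In the proliferation list 0 of 29 genes were called, 14 were positive and the median was -0.02. Mme, a membrane peptidase, stood at 67.0, 46.4 and 55.1 CPM in ICB and 7.32 and 7.58 CPM in BD+ICB tumours (log2 fold -2.92 ± 0.25 (SE), edgeR adjusted p = 0.000101). The orphan receptor Nr4a2 stood at 97.6, 108 and 95.8 CPM in ICB and 25.9 and 35.8 CPM in BD+ICB tumours (log2 fold -1.72 ± 0.17 (SE), edgeR adjusted p = 0.000239), and Nr4a1, of the same family, had a log2 fold of -0.87 ± 0.16 (edgeR adjusted p = 0.0217). Cxcl12, which binds Cxcr4 on leukocytes, stood at 172, 206 and 209 CPM in ICB and 75.7 and 116 CPM in BD+ICB tumours (log2 fold -1.04 ± 0.17 (SE), edgeR adjusted p = 0.0144). In the Bcl2 family Bak1, a pore-forming killer protein, rose (0.83 ± 0.15, edgeR adjusted p = 0.0178) and Bcl2l11, which activates such proteins, fell (-0.97 ± 0.18, edgeR adjusted p = 0.0178).

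**Figure D3:**
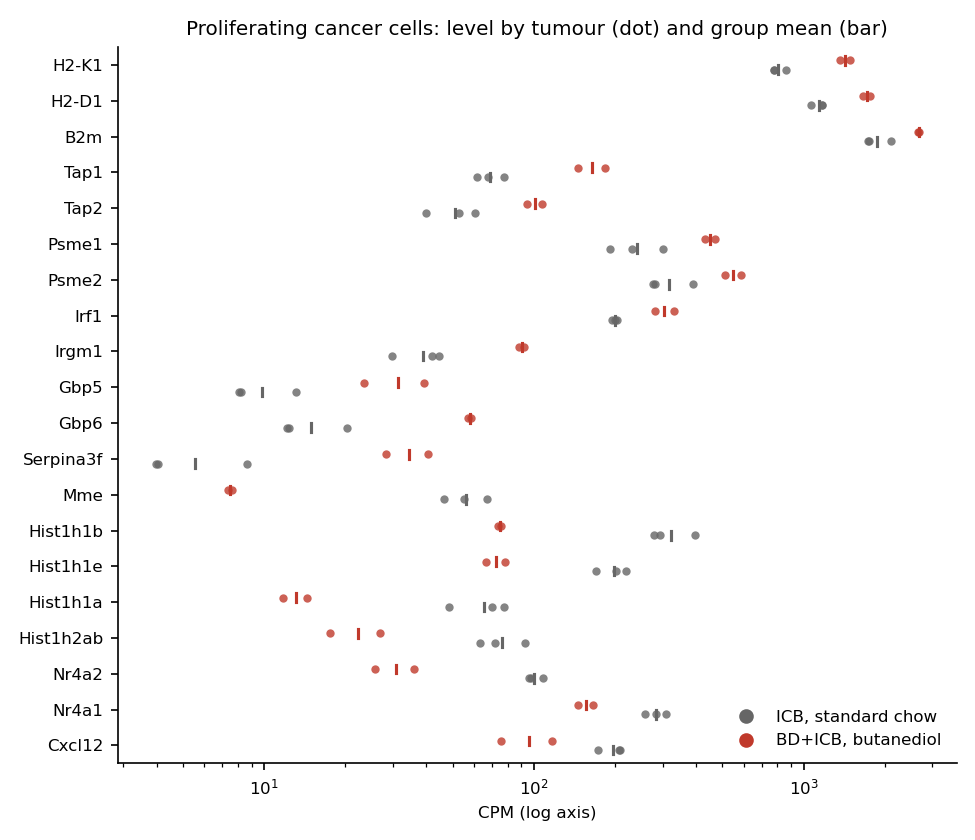
Level of 20 named genes (rows) in proliferating cancer cells in CPM on a log axis, 1 dot per tumour (3 ICB, 2 BD+ICB) and a bar at each group's mean. The groups do not overlap for any gene drawn; Gbp6, for example, sits at 12.1 to 20.4 CPM in ICB and 57.2 to 58.6 CPM in BD+ICB.

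Neutrophil markers in this class summed to 95.8 to 874 CPM in ICB (4 of 12 over 20 CPM) and 42.4 to 156 CPM in BD+ICB (2 of 12), and macrophage markers to 124 to 739 CPM and 67.4 to 118 CPM (5 and 1 of 12 over 20 CPM). Epithelial markers summed to 992 to 1247 CPM in ICB (3 of 10 over 20 CPM, 1 at 0) and 482 to 658 CPM in BD+ICB (2 of 10, 5 at 0), and monocyte markers to 1108 to 1291 CPM and 712 to 862 CPM (4 of 11 over 20 CPM in each group). Both of these sums, and that of macrophage markers, were lower in BD+ICB without overlap, and the part of the marker sets in the results was not tested. Without ICB replicate 2 there were 35 calls, and 17 of the 35 named genes that had been called stayed called. Those called in every fit that left out 1 ICB tumour included H2-K1, Tap1, Gbp6, Irgm1, Serpina3f, Mme, Nr4a2, Hist1h1b, Hist1h1e, Hist1h1a and Hist1h2ab. Leaving out a BD+ICB tumour left 1 in that group, so those fits are not counted here. MHC, GTPase, serpin and histone genes belong to families of near-identical copies, between which the counting could have split or lost reads.

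In Vcan+ monocytes, named after a matrix proteoglycan of inflammatory monocytes, 13 genes rose (0.18% of 7238) and 0 fell. They held MHC class I (B2m, Tapbp), interferon-gamma (Cd274) and type I interferon genes (Oasl1, Isg15). Of 18 MHC class I genes 16 were positive, with a median of 0.40 against -0.01 over all genes, and 11 did not overlap (7.67% of all genes were higher without overlap). Of 19 interferon-gamma genes 17 were positive (median 0.68), of 22 type I interferon genes 19 (median 0.45) and of 9 MHC class II genes all 9 (median 0.63, 0 called).

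B2m stood at 3089.6, 2965 and 3059.6 CPM in ICB and 4569, 4659 and 4103 CPM in BD+ICB tumours in these monocytes (log2 fold 0.55 ± 0.08 (SE), edgeR adjusted p = 0.00429). Cd274, which encodes PD-L1, stood at 255, 200.5 and 231 CPM in ICB and 403, 382 and 419 CPM in BD+ICB tumours (log2 fold 0.80 ± 0.14 (SE), edgeR adjusted p = 0.0246). Nampt, an enzyme of NAD synthesis, stood at 332, 227 and 317 CPM in ICB and 680.5, 517 and 664 CPM in BD+ICB tumours (log2 fold 1.07 ± 0.15 (SE), edgeR adjusted p = 0.00429). Each BD+ICB tumour was above each ICB tumour for these genes. Oasl1, an antiviral protein, stood at 15.4, 36.2 and 19.3 CPM in ICB and 109, 77.3 and 50.6 CPM in BD+ICB tumours (log2 fold 1.88 ± 0.33 (SE), edgeR adjusted p = 0.0257), and Isg15 at 328, 322 and 363 CPM in ICB and 602, 637 and 448 CPM in BD+ICB tumours (log2 fold 0.73 ± 0.14 (SE), edgeR adjusted p = 0.0397). Ass1, an enzyme of arginine synthesis, and Creb5, a transcription factor, rose by 1.09 ± 0.19 and 1.32 ± 0.22 on the log2 scale (edgeR adjusted p = 0.0257 and 0.0189). H2-K1 stood at 1294, 1331 and 1223 CPM in ICB and 1666, 1649 and 1486 CPM in BD+ICB tumours and was not called (edgeR adjusted p = 0.175).

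With Ifit+ monocytes merged in, 6 genes rose (0.0924% of 6494), namely Clec4n, Creb5, Fosb, Ifi205, Naaa and Ptgs2. Ptgs2, the inducible enzyme of prostaglandin synthesis, stood at 498, 591 and 581 CPM in ICB and 869.9, 1063 and 940.0 CPM in BD+ICB tumours (log2 fold 0.78 ± 0.15 (SE), edgeR adjusted p = 0.0442), without overlap. Neutrophil markers in Vcan+ monocytes summed to 3536 to 6788 CPM in ICB (10 of 12 over 20 CPM) and 1911 to 3178 CPM in BD+ICB (9 of 12). Macrophage markers summed to 4688 to 5704 CPM and 3666 to 4204 CPM (11 of 12 in each group), and T cell markers to 52.8 to 118 CPM and 7.8 to 14.8 CPM (0 of 13 in each group). These 3 sums were lower in BD+ICB without overlap, and their part in the results was not tested. The calls rested on single tumours: in Vcan+ monocytes leaving out BD+ICB replicate 1 or ICB replicate 2 gave 0 calls, leaving out BD+ICB replicate 2 gave 1, and leaving out ICB replicate 1 or 3 gave 7 and 37. In merged monocytes 0 were called without BD+ICB replicate 1, BD+ICB replicate 2 or ICB replicate 2, 1 without ICB replicate 3, and 11 without ICB replicate 1, SD replicate 1 or SD replicate 2.

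In merged neutrophils several hypoxia and glycolysis genes fell with butanediol, and Tap2 was the 1 of 16 tested MHC class I genes that rose. The ICB tumours held 106, 271 and 417 neutrophils and the BD+ICB tumours 20, 28 and 102. In this fit 10 genes rose (0.294% of 3402) and 15 fell (0.441%). The 15 held 6 of the 17 tested hypoxia genes (Bnip3, Egln1, Ero1l, Higd1a, Hilpda and P4ha1) and 4 of the 17 tested glycolysis genes (Gpi1, Ldha, Pfkfb3 and Tpi1). All 17 glycolysis genes had a negative log2 fold (median -0.70) and 15 of the hypoxia genes did (median -0.84), against a median of 0.01 over all genes. Without overlap 10 and 12 of them were lower, against 8.99% of all genes.

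Bnip3, a hypoxia-induced protein of mitochondria, stood at 397, 602 and 384 CPM in ICB and 104, 83.0 and 149.9 CPM in BD+ICB tumours (log2 fold -1.89 ± 0.30 (SE), edgeR adjusted p = 0.000958). Hilpda stood at 2300.5, 3693 and 3455 CPM in ICB and 1191, 844 and 1306 CPM in BD+ICB tumours (log2 fold -1.49 ± 0.25 (SE), edgeR adjusted p = 0.000958). Ldha, which turns pyruvate to lactate, stood at 974, 1643 and 1011 CPM in ICB and 522, 429 and 592 CPM in BD+ICB tumours (log2 fold -1.21 ± 0.25 (SE), edgeR adjusted p = 0.00965). The groups did not overlap for these genes. Higher in BD+ICB were Cd74, the chaperone of MHC class II, at 180.0, 174 and 279.7 CPM in ICB and 627, 983 and 407 CPM in BD+ICB tumours (log2 fold 1.59 ± 0.29 (SE), edgeR adjusted p = 0.00237), and Tap2 at 100.02, 66.6 and 95.0 CPM in ICB and 188, 346 and 169 CPM in BD+ICB tumours (log2 fold 1.36 ± 0.32 (SE), edgeR adjusted p = 0.0246). Socs1, a feedback inhibitor of interferon signalling, rose by 1.24 ± 0.29 on the log2 scale (edgeR adjusted p = 0.027), and so did the chemokine Ccl4 by 1.15 ± 0.25 (edgeR adjusted p = 0.0164). Nos2, the inducible nitric oxide synthase, stood at 140.0, 249.9 and 105 CPM in ICB and 41.8, 27.7 and 34.6 CPM in BD+ICB tumours (edgeR adjusted p = 0.0566). All 16 tested MHC class I genes were positive here (median 0.87, 1 called). Monocyte markers summed to 4294 to 5805 CPM in ICB (8 of 11 over 20 CPM) and 6838 to 10236 CPM in BD+ICB (8 of 11, 1 at 0), and markers of type 2 dendritic cells to 132 to 176 CPM (2 of 9, 4 at 0) and 204 to 395 CPM (3 of 9, 5 at 0). Both sums were higher in BD+ICB without overlap, as was that of monocyte markers in Cxcr2+ neutrophils alone (4787 to 5485 CPM against 6292 to 9915 CPM), and their part in the results was not tested.

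The class mixture moved with this result, as Hilpda+ cells were a smaller part of BD+ICB neutrophils. In Cxcr2+ neutrophils alone, the neutrophil class with at least 10 cells in all 6 tumours, 24 of the 25 genes were tested. The BD+ICB tumours held 13, 24 and 70 such cells. All 24 genes had the same direction, but only 2 were called (Bcl2a1b and Igfbp6). Cxcr2+ cells are part of merged neutrophils and the genes were chosen by their calls there, so a shared direction is not independent support. The median log2 fold of the lowered genes went from -1.51 to -0.93, and that of the raised genes from 1.24 to 1.30. In this class 4 genes were called (0.135% of 2961): Igfbp6 lower, and Bcl2a1b, Ifi47 and Il1rn higher. Il1rn, the antagonist of the interleukin-1 receptor, stood at 1499, 1638 and 2130.3 CPM in ICB and 3907, 5495 and 2900.0 CPM in BD+ICB tumours (log2 fold 1.21 ± 0.26 (SE), edgeR adjusted p = 0.0344). Ifi47, an interferon-inducible GTPase, stood at 217, 125 and 157 CPM in ICB and 378, 614 and 449 CPM in BD+ICB tumours (log2 fold 1.57 ± 0.32 (SE), edgeR adjusted p = 0.0251). Of its 14 tested MHC class I genes all 14 were positive (median 0.97 against -0.06 over all genes, 0 called) and 10 were higher without overlap (6.15% of all genes). Igfbp6, a binding protein of insulin-like growth factors, was lower at 169.8, 206 and 146 CPM in ICB and 31.5, 16.2 and 11.8 CPM in BD+ICB tumours (log2 fold -3.43 ± 0.55 (SE), edgeR adjusted p = 0.00149). Cxcr2+ neutrophils gave 1 call without BD+ICB replicate 2 or ICB replicate 2, 2 without ICB replicate 1, 15 without ICB replicate 3 and 7 without SD replicate 2. In merged neutrophils 6 genes were called without BD+ICB replicate 2 and 6 without ICB replicate 2. Bnip3 and Hilpda were the named genes called in every merged fit that left out 1 tumour. In Cxcr2+ neutrophils alone Bnip3 had a log2 fold of -0.94 (edgeR adjusted p = 0.461) and Hilpda one of -0.53 (edgeR adjusted p = 0.818). Neither was called there, and Hilpda overlapped between the groups.

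**Figure D4:**
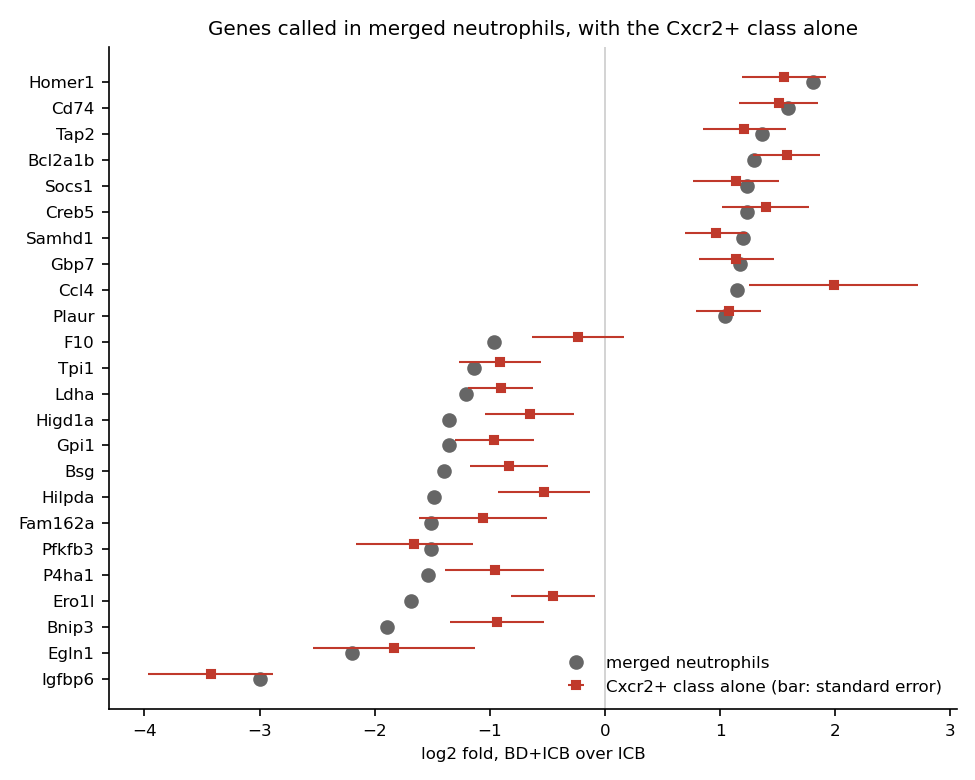
Log2 fold of BD+ICB over ICB (x axis) of the 24 genes called in merged neutrophils and tested in Cxcr2+ neutrophils (rows). Grey dots are merged neutrophils, and red squares with SE bars are Cxcr2+ cells alone, which are part of the merged cells. All 24 keep their sign, and the lowered genes lie nearer 0 in Cxcr2+ cells (median -0.93) than in merged neutrophils (-1.51).

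In macrophages the gene called in several fits was Cx3cr1, the fractalkine receptor of resident macrophages and patrolling monocytes, which was lower in BD+ICB. In M1 macrophages it stood at 99.1, 121 and 53.3 CPM in ICB and 7.91, 5.61 and 10.7 CPM in BD+ICB tumours (log2 fold -3.46 ± 0.42 (SE), edgeR adjusted p = 0.0128). In other macrophages it stood at 116, 172 and 108 CPM in ICB and 15.1 and 7.27 CPM in BD+ICB tumours (log2 fold -3.49 ± 0.42 (SE), edgeR adjusted p = 2.94e-05), where it was the only call (0.018% of 5556), and in merged macrophages at 104, 114 and 78.7 CPM in ICB and 5.8, 6.69 and 14.9 CPM in BD+ICB tumours (log2 fold -3.45 ± 0.39 (SE), edgeR adjusted p = 0.0238). The groups did not overlap in any of them. M1 macrophages had 4 calls (0.0597% of 6701). Pdcd1lg2, a ligand of PD-1, stood at 1.38, 3.74 and 3.4 CPM in ICB and 26.4, 33.7 and 12.4 CPM in BD+ICB tumours (log2 fold 3.06 ± 0.55 (SE), edgeR adjusted p = 0.018), and the integrin Itga1 at 12.4, 13.1 and 23.8 CPM in ICB and 46.8, 82.9 and 55.3 CPM in BD+ICB tumours (log2 fold 1.85 ± 0.29 (SE), edgeR adjusted p = 0.00877). Apoc2, an apolipoprotein, was lower (-1.17 ± 0.20, edgeR adjusted p = 0.018). Nos2 in this class stood at 34.4, 57.9 and 82.9 CPM in ICB and 329, 155 and 166 CPM in BD+ICB tumours without overlap, but did not pass (edgeR adjusted p = 0.324).

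Merged macrophages, of which M1 cells were 14.0% to 32.7% in ICB and 50.2% to 68.0% in BD+ICB, had 2 calls (0.0229% of 8728), Cx3cr1 and Ntpcr, both lower. Their 18 MHC class I genes were all positive (median 0.43 against -0.01), with 0 called, and 10 were higher without overlap (6.65% of all genes). Of 19 interferon-gamma genes 17 were positive (median 0.57, 0 called). In Mmp+ M2 macrophages the 1 call (0.0212% of 4723) was S100a8, a neutrophil alarmin, at 483, 301 and 399 CPM in ICB and 62.2, 111 and 119.9 CPM in BD+ICB tumours (log2 fold -2.02 ± 0.30 (SE), edgeR adjusted p = 0.00922). It was not called under a stricter hashtag rule or without BD+ICB replicate 1 or 2. M1 macrophages gave 0 calls without BD+ICB replicate 2, 1 without BD+ICB replicate 1 or ICB replicate 1, 2 without ICB replicate 2, 24 without BD+ICB replicate 3, 13 without ICB replicate 3, 10 without SD replicate 1 and 8 without SD replicate 3. Cx3cr1 in other macrophages was called in every fit that left out 1 ICB, SD or BD tumour. Leaving out a BD+ICB tumour left 1 in that group. In merged macrophages 0 genes were called without BD+ICB replicate 1, BD+ICB replicate 2, ICB replicate 1, ICB replicate 2, SD replicate 1 or SD replicate 3, while 19, 8 and 7 were called without BD replicate 1, 2 or 3, and 4 without BD+ICB replicate 3, ICB replicate 3 or SD replicate 2.

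Merged dendritic cells had 19 calls (0.335% of 5668), 11 higher and 8 lower. Lower were Cst3, a protease inhibitor abundant in dendritic cells, at 7180.5, 9477 and 8538 CPM in ICB and 4839, 3477 and 3744 CPM in BD+ICB tumours (log2 fold -1.06 ± 0.17 (SE), edgeR adjusted p = 0.00694), and 2 genes of the MHC class II list. Ciita, the master regulator of MHC class II, stood at 51.2, 78.1 and 120.4 CPM in ICB and 27.0, 32.9 and 25.8 CPM in BD+ICB tumours (log2 fold -1.45 ± 0.30 (SE), edgeR adjusted p = 0.0474). H2-Oa, which edits MHC class II loading, stood at 98.1, 91.1 and 84.0 CPM in ICB and 27.0, 30.8 and 42.3 CPM in BD+ICB tumours (log2 fold -1.51 ± 0.26 (SE), edgeR adjusted p = 0.0127). Higher were the chemokine Cxcl2, at 3153, 2446 and 3352 CPM in ICB and 4829, 5729 and 5879.6 CPM in BD+ICB tumours (log2 fold 0.87 ± 0.15 (SE), edgeR adjusted p = 0.0149), and the cytokine Il10, at 5.68, 0 and 11.2 CPM in ICB and 25.2, 45.1 and 47.8 CPM in BD+ICB tumours (log2 fold 2.51 ± 0.51 (SE), edgeR adjusted p = 0.0414). The groups did not overlap for these genes. The calls stood beside the larger part of Nos2+ cells in BD+ICB dendritic cells, whose part in them was not tested, and Nos2+ cells alone gave 0 calls with 2 ICB tumours in the fit. The merged fit held 67, 12 and 33 cells in the ICB tumours and 103, 113 and 49 in the BD+ICB tumours. Without ICB replicate 2, or with at least 30 cells per tumour, Cst3, Ciita, Cxcl2 and Il10 were not called, while H2-Oa stayed called. Without BD+ICB replicate 2 there was 1 call, and the count was 5, 8 and 52 on leaving out ICB replicate 2, BD+ICB replicate 1 and BD+ICB replicate 3. Kdm4a, a histone demethylase that was lower, was the named gene called in every such fit. Other dendritic cells, with 2 tumours a group, had 5 calls (0.127% of 3940), among them the growth factor Pgf higher (2.22 ± 0.42, edgeR adjusted p = 0.0378) and the ribosomal gene Rpl21 lower (-0.80 ± 0.16, edgeR adjusted p = 0.042). That class gave 0 calls by DESeq2 and without BD replicate 1, SD replicate 1 or SD replicate 3. Leaving out an ICB or BD+ICB tumour left 1 in its group, so those fits are not counted here.

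In CD8 T cells 5 genes rose (0.093% of 5375) and 42 fell (0.781%). Gzmb, the granzyme of cytotoxic granules, stood at 774, 451 and 512 CPM in ICB and 1102, 1281 and 1469 CPM in BD+ICB tumours (log2 fold 1.13 ± 0.22 (SE), edgeR adjusted p = 0.0231). Cxcr6, a receptor of tissue-resident T cells, stood at 292, 306 and 352 CPM in ICB and 450.2, 565 and 529 CPM in BD+ICB tumours (log2 fold 0.71 ± 0.17 (SE), edgeR adjusted p = 0.0367). Tox, a transcription factor of exhausted T cells, was lower at 55.4, 25.1 and 46.9 CPM in ICB and 10.3, 10.1 and 18.8 CPM in BD+ICB tumours (log2 fold -1.89 ± 0.39 (SE), edgeR adjusted p = 0.0129). None of the 3 overlapped. Klra1, an inhibitory receptor of the Ly49 family, had 0 UMIs in the ICB tumours and 59 in BD+ICB, at least 12.97-fold higher against a floor of 3 UMIs over the ICB group; its family has near-identical members. Klf2, a transcription factor of naive and circulating T cells, had a log2 fold of -1.34 ± 0.28 (edgeR adjusted p = 0.0248). Ifng stood at 142, 94.7 and 66.5 CPM in ICB and 325, 235 and 145 CPM in BD+ICB tumours and was not called (edgeR adjusted p = 0.144), nor was Pdcd1, which encodes PD-1, at 449, 334 and 192 CPM in ICB and 428, 355 and 373 CPM in BD+ICB tumours (edgeR adjusted p = 0.953).

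Among the named genes that fell in CD8 T cells were several of myeloid cells. Clec4e, a myeloid lectin receptor, stood at 106, 150.4 and 133 CPM in ICB and 8.56, 9.23 and 10.7 CPM in BD+ICB tumours (log2 fold -3.72 ± 0.35 (SE), edgeR adjusted p = 8.08e-07), Hcar2, the receptor of β-hydroxybutyrate, at 67.7, 25.1 and 93.9 CPM in ICB and 1.71, 3.36 and 2.69 CPM in BD+ICB tumours (log2 fold -4.33 ± 0.53 (SE), edgeR adjusted p = 3.46e-05), and the inflammasome sensor Nlrp3 at 89.8, 128 and 137 CPM in ICB and 15.4, 13.4 and 5.37 CPM in BD+ICB tumours (log2 fold -3.16 ± 0.37 (SE), edgeR adjusted p = 3.46e-05). Neutrophil markers moved with them, summing to 573 to 2142 CPM in ICB (9 of 12 over 20 CPM) and 71.0 to 80.1 CPM in BD+ICB (1 of 12 over 20 CPM, 1 at 0). Among merged T cells, 25 of 290 in ICB (8.62%) and 12 of 407 in BD+ICB (2.95%) held at least 10 UMIs of neutrophil and macrophage markers. Without such cells 3 genes were called in CD8 T cells, 2 of them shared with the 47 (Klra1 and Tox), and the median of the lowered genes tested went from -2.17 to -0.77. Under the stricter hashtag rule 4 were called, 3 of them shared (Gzmb, Klra1 and Tox), with a median of -0.96. Gzmb was then called under the hashtag rule but not without the myeloid-UMI cells. The selection without myeloid-UMI cells was chosen after the calls had been seen, and free RNA in the droplets was not tested.

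**Figure D5:**
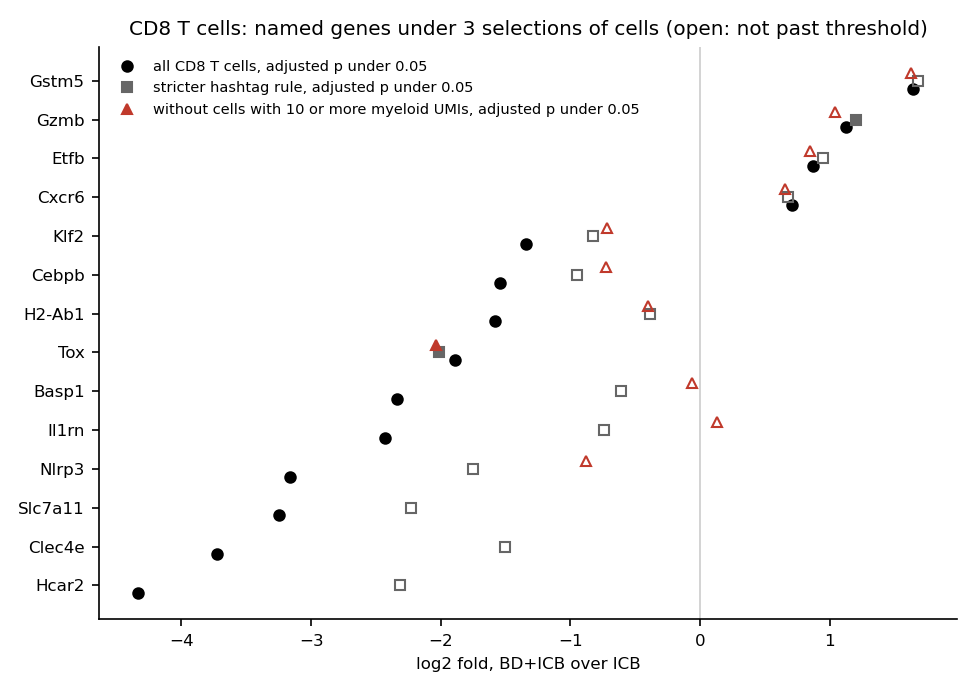
Log2 fold of BD+ICB over ICB (x axis) of genes called in CD8 T cells (rows; Klra1, at 0 in ICB, is not drawn). Black circles are all CD8 T cells, grey squares the stricter hashtag rule and red triangles the cells with under 10 myeloid UMIs, filled where the adjusted p was under 0.05; a missing symbol means that the gene was filtered out. Tox lies at -1.89 with all cells and is filled in all selections, while Il1rn moves from -2.43 to 0.13.

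With CD4 and regulatory T cells merged in, 2 genes rose (Klra1 and Gstm5, 0.0279% of 7160) and 38 fell (0.531%). Without the myeloid-UMI cells 8 were called, 5 of them shared with the 40 (Ets2, Klra1, Osgin1, Rgs1 and Tox). Merged T cells gave 18 calls when BD+ICB replicate 2 was left out and 73 when BD+ICB replicate 1 was. In CD8 T cells the count was 16 without BD+ICB replicate 2, 29 without BD+ICB replicate 1, 24 without ICB replicate 3 and 72 without ICB replicate 1. Cxcr6 was not called in any CD8 fit that left out 1 ICB or BD+ICB tumour. Gzmb was not called without BD+ICB replicate 2, BD+ICB replicate 3, ICB replicate 2 or ICB replicate 3, and Tox not without BD+ICB replicate 1, BD+ICB replicate 2 or ICB replicate 1, nor by DESeq2 (adjusted p = 0.192).

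In CD4 T cells 7 genes rose (0.303% of 2308) and 14 fell (0.607%). Il2ra, the high-affinity chain of the interleukin-2 receptor, stood at 64.1, 118 and 26.2 CPM in ICB and 305, 318 and 125 CPM in BD+ICB tumours (log2 fold 2.01 ± 0.43 (SE), edgeR adjusted p = 0.0477), and Il1r2, a decoy receptor of interleukin-1, at 142, 53.6 and 87.2 CPM in ICB and 235, 365 and 376 CPM in BD+ICB tumours (log2 fold 1.70 ± 0.32 (SE), edgeR adjusted p = 0.0123). Tnfsf11, which encodes RANKL, stood at 228, 408 and 253 CPM in ICB and 495, 651 and 557 CPM in BD+ICB tumours (log2 fold 0.97 ± 0.23 (SE), edgeR adjusted p = 0.0477). The groups did not overlap. Genes that fell included Slpi, a neutrophil protease inhibitor (-3.98 ± 0.49, edgeR adjusted p = 0.000319), and the chemokine Ccl3 (-2.88 ± 0.43, edgeR adjusted p = 0.00506). Neutrophil markers summed to 1396 to 5251 CPM in ICB (8 of 12 over 20 CPM) and 376 to 492 CPM in BD+ICB (5 of 12, 1 at 0). Mast cell and basophil markers summed to 34.8 to 59.5 CPM in ICB and 34.6 to 1646 CPM in BD+ICB, and their part was not tested. Without cells with myeloid UMIs 6 genes were called, 2 of them shared with the 21 (Il1r2 and Klrc1). Without BD+ICB replicate 2, and without ICB replicate 1, 4 genes were called.

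In NK cells, with 2 tumours a group, 6 genes were called (0.327% of 1833). Xcl1, which attracts dendritic cells, stood at 226 and 338 CPM in ICB and 857 and 516 CPM in BD+ICB tumours (log2 fold 1.32 ± 0.30 (SE), edgeR adjusted p = 0.00865). Cd14 (-2.72 ± 0.46, edgeR adjusted p = 0.000986) and Apoe (-2.17 ± 0.42, edgeR adjusted p = 0.00302), both genes of macrophages and monocytes, fell. Neutrophil markers in NK cells summed to 179 to 2041 CPM in ICB (9 of 12 over 20 CPM) and 58.8 to 90.4 CPM in BD+ICB (1 of 12, 6 at 0), and 4 of 45 ICB and 1 of 36 BD+ICB cells held at least 10 myeloid UMIs. Without those cells Xcl1 and Il21r were called of the 6, Apoe was not (edgeR adjusted p = 0.605), and Cd14 was not tested. DESeq2 called 0 genes in NK cells. By edgeR all 6 genes stayed called without SD replicate 1 or SD replicate 2. Leaving out an ICB or BD+ICB tumour left 1 in its group, so those fits are not counted here. In proliferating immune cells Gzmb stood at 193, 207 and 71.7 CPM in ICB and 698, 460.3 and 491 CPM in BD+ICB tumours without overlap, but did not pass (edgeR adjusted p = 0.156). There 15 of 17 cytotoxic genes were positive, with a median of 1.81 against -0.01 over all genes and 0 calls; without BD+ICB replicate 3 the class gave 121 calls.

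Genes that handle ketone bodies gave few calls. Over the deposited classes in which the list had tested genes, 0 of its members were called higher and 2 lower, Hcar2 and the lactate transporter Slc16a3 in CD8 T cells. Neither was called there under the stricter hashtag rule or without the myeloid-UMI cells. Histone deacetylases and sirtuins had 0 calls in all 13 classes, with medians from -0.60 to 0.13. In Cxcr2+ neutrophils, which carry the receptor, Hcar2 stood at 1434, 1607 and 1765 CPM in ICB and 2709.9, 2392 and 2581 CPM in BD+ICB tumours, without overlap but not called (log2 fold 0.67 ± 0.23, edgeR adjusted p = 0.283). The difference between the diet effect under blockade and that without blockade was tested where all 4 groups of the series allowed it. With p-values adjusted within each fit, Hcar2 in Cxcr2+ neutrophils was the 1 call among 31564 tests over all fits (0.00317%). That contrast joins 2 libraries, so blockade and library cannot be told apart in it.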

How the data were processed

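Single-cell RNA was sequenced from 12 tumours in 2 libraries, of which the 6 tumours under blockade are compared here. The authors' deposited counts are UMI counts per gene and cell (18848 genes), made with Cell Ranger and R 4.1 on mm10, per the submitters' processing notes. Cell types, tumours and treatments were taken from the deposited cell table, and hashtag counts from the deposited matrices. The percent of UMIs from mitochondrial genes in the authors' cell table is at most 4.9975 and was used only to describe cells. How the authors set their cell filters and removed doublets is not given in the sources used here, and no doublet caller was run.

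For each class, UMIs of a tumour's cells were added up. Tumours with under 10 cells were left out and each group needed 2 tumours. Fits leaving out 1 tumour were also run where they left 1 tumour in a group. edgeR 4.0.16 (R 4.3.3; TMM, filterByExpr, robust quasi-likelihood) was fitted with all 4 groups, so tumours without blockade share in the estimate of spread, and p-values were Benjamini-Hochberg adjusted over all genes of a fit at a threshold of 0.05. The code was tested on simulated data. Shares were compared with exact permutation tests (scipy 1.17.1). DESeq2 1.42.0, other filters, a tighter hashtag criterion (10 or more counts of the leading hashtag, 3-fold over the runner-up) and fits leaving out 1 tumour were alternatives. Removing lymphocytes with 10 or more myeloid-marker UMIs was chosen after seeing the data.

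Named genes were, per fit, up to 8 raised and 8 lowered by adjusted p, genes called in 2 or more fits, list members past the threshold and up to 4 others, and a fixed set. Members and lists were chosen with earlier results of these data known. Deviations of same-numbered tumours correlated weakly (-0.09 to 0.20), so the numbers were not used as pairs. In merged dendritic cells and monocytes all these correlations were positive, and in the other merged compartments their signs were mixed. Results for some genes are not reported here.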

Additional observations from a re-analysis of the deposited data

Results flagged for a closer look

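The effect of butanediol on Hcar2, the receptor of β-hydroxybutyrate, in Cxcr2+ neutrophils differed between tumours with and without blockade in a test of the difference itself. The log2 fold of BD+ICB over ICB minus that of BD over SD was 2.57 ± 0.44 (SE), with an edgeR adjusted p = 0.00434. That adjustment covered the 2961 genes of this fit, not the 31564 tests of all fits. Before TMM scaling, Hcar2 stood at 1315, 1346 and 1692 CPM in ICB, 2298, 2146 and 2207 CPM in BD+ICB, 1053, 943 and 757 CPM in SD (standard diet, no blockade) and 842, 350 and 162 CPM in BD (butanediol, no blockade). The BD values rest on 12, 12 and 4 UMIs in 8, 15 and 12 cells, and the first of these tumours was under the cell minimum and left out of the fit. Without BD replicate 3 the difference was 2.22 and was no longer called (edgeR adjusted p = 0.115). DESeq2 gave 2.51 (adjusted p = 0.000483). The 2 pairs of groups lie in different libraries, so blockade and library cannot be told apart.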

How the results depend on the processing

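Counts of called genes depended on the settings. Over the 13 classes (204 calls) there were 75 with at least 30 cells per tumour and 1076 with no filter on low counts. With no filter the calls were 71 in CD4, 127 in CD8, 13 in NK cells, 134 in Vcan+ monocytes, 415 in cancer cells, 120 in merged T cells, 113 in merged macrophages, 79 in merged monocytes, 45 in merged neutrophils and 60 for the difference between diet effects. DESeq2 gave 0 in NK cells, 25 in merged T cells, 18 in merged macrophages, 11 in merged monocytes, 46 in merged neutrophils and 11 for that difference. With the 6 tumours alone, merged macrophages gave 30. The stricter hashtag rule gave 4 in CD8, 3 in NK cells, 21 in Vcan+ monocytes, 64 in cancer cells, 10 in merged T cells, 1 in merged macrophages and 10 in merged neutrophils. Of the 25 genes called in merged neutrophils, 2 were called in Cxcr2+ cells alone with all cells kept. Without lymphocytes holding myeloid UMIs there were 6 calls in CD4, 3 in CD8 and 8 in merged T cells, and Il1rn in CD8 T cells turned to 0.13 (edgeR adjusted p = 0.997).

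The replicate number was also used as a block, although it is not known to pair these tumours (correlations of same-numbered tumours from -0.09 to 0.20). The replicate block gave 518 calls over the classes, 78 in CD8, 18 in NK cells, 159 in Vcan+ monocytes and 174 in cancer cells. It gave 90 in merged T cells, 7 in merged macrophages, 25 in merged monocytes, 41 in merged neutrophils and 4 for the difference between diet effects.

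Leaving out 1 tumour gave 112 to 355 calls over the classes, 4 to 29 in CD4, 16 to 72 in CD8, 0 to 15 in NK cells, 0 to 37 in Vcan+ monocytes, 35 to 116 in cancer cells, 18 to 73 in merged T cells, 0 to 19 in merged macrophages, 0 to 11 in merged monocytes, 6 to 36 in merged neutrophils, and 0 to 10 for the difference between diet effects. For shares the permutation test cannot pass at this size, so its 0 calls say nothing of stability. Of 145 named calls 36 were called in every such fit, and none changed direction. Some of these fits left 1 tumour in ICB or BD+ICB, in cancer cells, NK cells, other dendritic cells, other macrophages and Nos2+ dendritic cells. For the difference between diet effects some left 1 BD tumour. The check of named calls includes those fits, and ranges of counts over them are not given. The counts over the 13 classes given earlier for leaving out a BD+ICB tumour also include such fits. Classes with few cells per tumour limit what could be detected.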

Other observations

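Outside the lists, genes with histone symbols were lower together in BD+ICB cancer cells. Of 36 tested genes with a histone symbol all 36 had a negative log2 fold, with a median of -1.69, and 16 were called lower by edgeR. Over all 9613 genes tested in these cells the median was -0.004 and 57 (0.593%) were called lower. The set was chosen after its values were seen. Histone genes share near-identical sequence, so counts of single genes are uncertain.

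In the same cells 3 genes that encode enzymes of sterol synthesis were picked after they had been called lower, so they say nothing of the pathway as a whole. Cyp51, a demethylase, had a log2 fold of -1.05 (edgeR adjusted p = 0.00428), the isomerase Idi1 one of -1.01 (edgeR adjusted p = 0.0178), and the epoxidase Sqle one of -0.77 (edgeR adjusted p = 0.0253). Prl2c2, a prolactin-family gene with near-identical copies, had 0 UMIs in the ICB cancer cells and 64 in BD+ICB, at least 49.5-fold higher against a floor of 3 UMIs over the group.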
